A study of Mus musculus with 12 samples.

Results

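PWD males were compared with B6 males in prepachytene spermatocytes, the sorted cells that hold leptotene, zygotene and early pachytene stages. The comparison rests on 4 of the 12 arrays of the series, 2 from PWD/Ph (PWD, an inbred strain of *M. m. musculus* origin) and 2 from C57BL/6J (B6, mainly *M. m. domesticus*), chosen by the strain and cell type in the sample labels. The other 8 arrays hold spermatids and later spermatocytes (called pachytene here, with mid to late pachytene and diplotene stages) of both strains. All males were 8 to 10 weeks old according to the labels, which name no transgene, targeted allele or agent for any group. The populations were collected by flow sorting, in duplicates from 2 animals of each strain, and 15 to 40 ng of RNA was amplified in 2 cycles and hybridized to Affymetrix mouse expression arrays. The labels do not say whether the replicate number marks the animal, so that p-values measure only the spread between sorted samples. Both strains are fertile inbred parents, and the values describe the parental strains and not their sterile hybrids.

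In leptotene the chromosomes form axes and the genome is cut by programmed double-strand breaks, at sites marked by the histone methyltransferase PRDM9. In zygotene the broken ends are loaded with recombinases, search for the homolog and bring the homologs together, and the synaptonemal complex closes between them in early pachytene. *Prdm9* is a hybrid sterility gene of the crosses between these subspecies, and a failure of homologs to synapse precedes the meiotic arrest of the sterile hybrids.

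Expression is given as log2 values, and a log fold-change is the PWD mean minus the B6 mean on the log2 scale. A probeset was called when its adjusted p was under 0.05 in limma, which fitted 6 means, 1 for each strain in each population, to all 12 arrays, and a gene was read from the probeset that names no other gene and was brightest over the 12 arrays. The background level was 4.86, the 95th percentile of the levels, averaged over the 12 arrays, of 54 probesets for 36 genes that other organs express, and 9433 of 18193 genes had a prepachytene mean above it. Below this level the array gives only an upper limit, so that a fold is then written as a lower bound against this level. Statements that the arrays of the strains did not overlap describe the printed values. The share of all genes without such overlap is not given here, so that these statements add no weight to a call.

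*Sycp3*, which builds the chromosome axis and is a defining marker of these cells, had 16.41 and 16.32 in PWD and 15.99 and 16.06 in B6. The 16 measured genes of the list of prepachytene markers were all above background, with a mean level of 12.65 and 12.95 on the PWD arrays and 12.41 and 12.56 on the B6 arrays. Of 19 pachytene and diplotene genes 18 were also above background, and so were all 32 spermatid genes. Lying above background therefore does not set these cells apart. The 2 PWD arrays correlated with each other at r = 0.987 over probesets, which was the lowest value of the 6 groups, and the 2 B6 arrays at 0.994. The PWD arrays also stood apart in the *Actb* control probesets, where the 3' signal exceeded the 5' signal by 4.08 and 4.43 in PWD and by 3.27 and 3.27 in B6, against 2.65 to 3.30 on the other 8 arrays. The *Gapdh* control probesets did not separate the strains in this way (3.05 and 3.59 in PWD, 3.14 and 3.46 in B6). The part of these differences between arrays in the results was not tested.

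Of 45037 probesets, 8369 differed between PWD and B6 (18.6%), and 5341 of them were higher (11.9%) and 3028 lower (6.72%) in PWD. Of 18193 genes, 4092 were called (22.5%), 3023 higher (16.6%) and 1069 lower (5.88%). Among the 9433 genes above background 35.5% were called, 26.6% higher and 8.83% lower. Counts of list members are read against these shares where the members lie above background. For lists with many members below it, the shares over all 18193 genes are the nearer comparison. The absolute log fold-change of a called probeset was 1.37 in the median, and 1195 called probesets were higher and 841 lower by over 2. Beyond 5 there were 21 higher and 55 lower ones. The direction of small differences depended on the scaling of the arrays. The median log fold-change of genes above background was 0.33 as deposited, 0.05 after centring each array on probesets above background and 0.10 after quantile normalization again, and 63.8% of the calls were higher in PWD as deposited, 23.3% after centring and 50.1% after quantile normalization. Over the 16352 probesets above background this share was 68.9% as deposited, 48.2% after centring and 52.0% after quantile normalization. Medians of lists are therefore read beside the median of 0.33 where the members lie above background. For lists with many members below it, the median over all genes, 0.02, is the nearer comparison.

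*Mei4* (Chr 9) had the largest difference of the genes in the lists of meiotic genes. Its product forms the break-promoting assembly on the axis together with REC114. It had 3.44 and 4.30 in PWD and 9.31 and 10.02 in B6. The PWD arrays were below background and the B6 arrays far above it. The log fold-change was -5.80 (SE 0.31, n = 2 arrays each, adjusted p = 1.3e-05 in limma), or at least 28.1-fold lower in PWD. A single probeset above background reports *Mei4*, and a sequence difference of PWD under its probes was not tested. In the later populations the means were 3.45 in PWD and 3.33 in B6 pachytene cells and 3.37 in PWD and 3.43 in B6 spermatids, all below background, so that no strain effect could be seen there, and the difference between the strain effects was -5.92 against pachytene (adjusted p = 1.3e-04).

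*Rec114*, the partner of *Mei4*, was higher in PWD, with 7.85 and 8.12 against 6.51 and 6.65 in B6. The log fold-change was 1.41 (SE 0.25, adjusted p = 0.00635), and another probeset gave 1.48. *Prdm9* had 8.34 and 9.16 in PWD and 7.78 and 7.88 in B6. Its PWD arrays lay above both B6 arrays, but the log fold-change of 0.92 (95% interval 0.27 to 1.56) did not pass the test (adjusted p = 0.0572). *Ankrd31*, whose product binds REC114, had 5.89 and 6.85 in PWD and 7.26 and 8.54 in B6, and its log fold-change of -1.53 did not pass either (adjusted p = 0.0875). *Spo11*, which encodes the enzyme that cuts DNA, gave 0.25 with a 95% interval of -0.34 to 0.83. Of the 8 measured genes of break formation, 1 was higher and 1 lower, and their median was 0.15.

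Of the 13 genes of strand exchange, 4 were lower in PWD and 1 was higher, with a median of -0.14. *Dmc1*, the meiotic recombinase, had 10.43 and 10.98 in PWD and 11.50 and 11.89 in B6. The strains did not overlap, and the log fold-change was -0.99 (SE 0.22, adjusted p = 0.0174). Another probeset of *Dmc1* gave -1.92 (adjusted p = 2.7e-04). The call of the brighter probeset was lost without PWD replicate 1 (-0.72, adjusted p = 0.0565) and without B6 replicate 2 (-0.80, adjusted p = 0.101).

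The 2 subunits of the complex that stimulates DMC1 differed in opposite directions. *Psmc3ip*, which encodes HOP2, had 12.45 and 11.81 in PWD and 14.22 and 13.78 in B6, a log fold-change of -1.87 (SE 0.33, adjusted p = 0.0058), and another probeset gave -0.66 (adjusted p = 0.0715). Its partner *Mnd1* had 9.36 and 8.69 in PWD and 7.98 and 7.86 in B6, a log fold-change of 1.10 (SE 0.21, adjusted p = 0.00813). Neither gene overlapped between the strains. *Psmc3ip* was also lower in PWD pachytene cells (-3.01) and spermatids (-3.36), whereas *Mnd1* was below background in both strains there.

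*Hsf2bp*, which helps to bring BRCA2 to meiotic breaks, had 10.57 and 10.91 in PWD and 11.66 and 11.40 in B6. Its fall of -0.79 (adjusted p = 0.0125) was followed by 0.61 in pachytene (adjusted p = 0.0503), and the difference of the strain effects passed the test (-1.40, adjusted p = 0.00776). *Rpa1*, the large subunit of the protein that coats single-stranded DNA, fell by 0.53 (adjusted p = 0.0208). *Brca2* itself gave 0.74, with an interval of 0.04 to 1.43, and did not pass (adjusted p = 0.148).

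Of the 12 genes of crossover formation and mismatch repair, *Cdk2* was called, and it was lower in PWD. This kinase sits at telomeres and at late recombination sites of spermatocytes. It had 7.74 and 7.47 in PWD and 10.06 and 10.51 in B6, a log fold-change of -2.68 (SE 0.25, adjusted p = 2.7e-04) with wide separation of the strains, and -0.31 and 0.17 in the later populations. *Mlh3*, whose product resolves crossovers, gave -1.16 without passing (adjusted p = 0.0983). *Msh5* could not be given a direction, since 1 probeset gave -0.84 (adjusted p = 0.0535) and another one 1.33 (adjusted p = 8.7e-04).

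**Figure D1:**
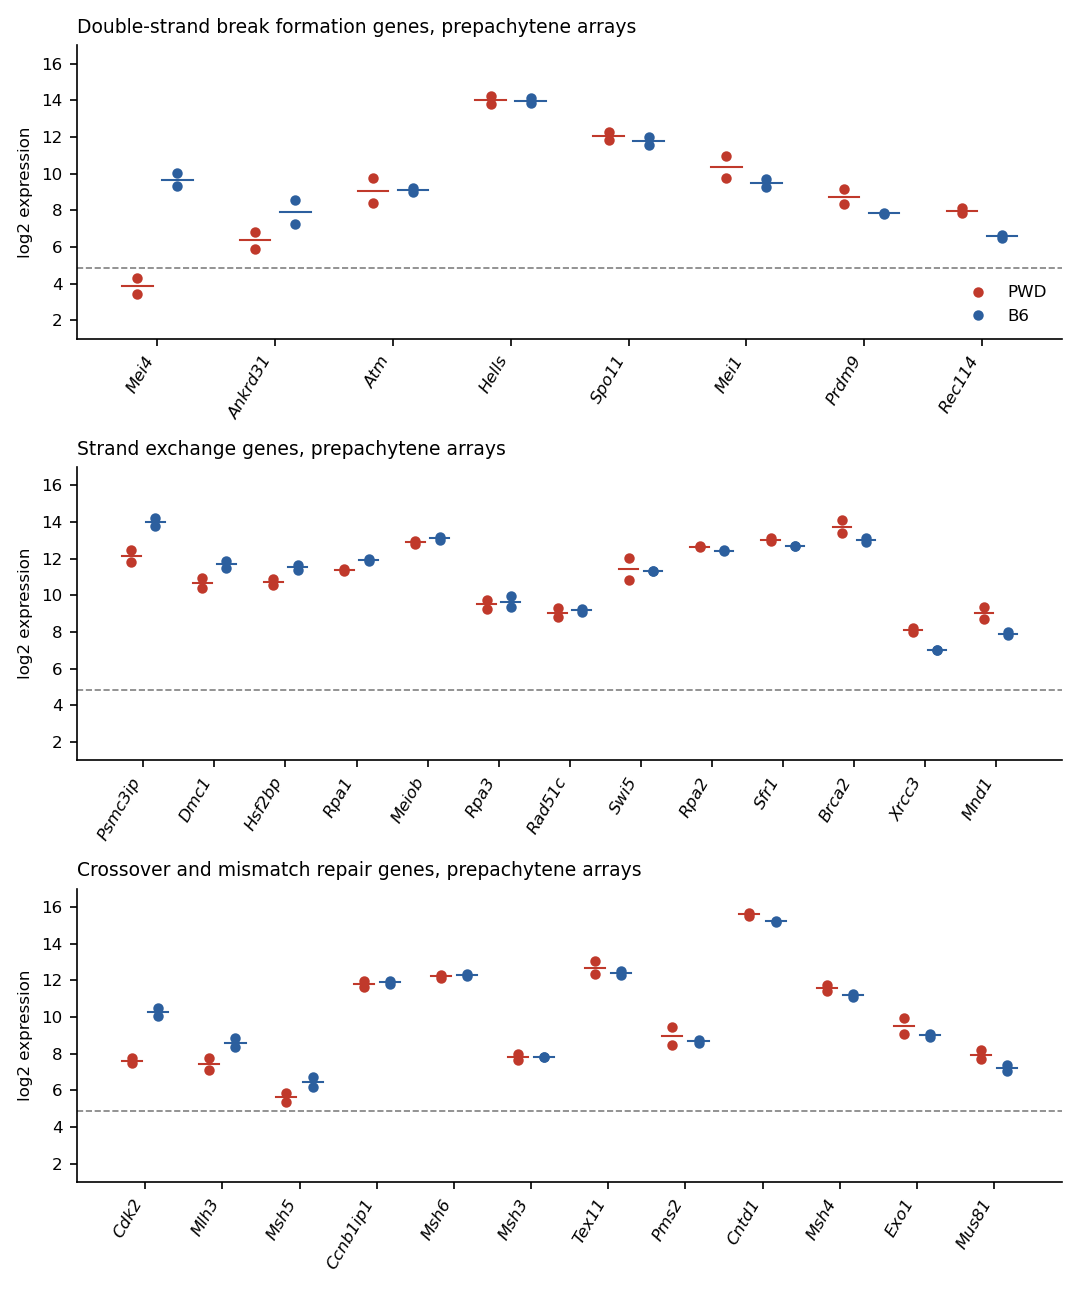
Log2 expression of the genes of break formation, strand exchange and crossover formation on each prepachytene array, with PWD (red, left) beside B6 (blue, right), bars at the mean of 2 arrays and the dashed line at the background level of 4.86. *Mei4* is the only gene that lies below the line in PWD (3.44 and 4.30) and above it in B6 (9.31 and 10.02).

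The structures that hold homologs together differed little. Of the 10 genes of the axis and the synaptonemal complex, *Sycp2* was higher in PWD (15.74 and 15.68, against 15.02 and 15.18 in B6, log fold-change 0.61, adjusted p = 0.034) and the others did not pass. The call of *Sycp2* was lost without any 1 of the 4 prepachytene arrays (0.53 to 0.68) and after both rescalings. *Sycp1*, the transverse filament, gave 0.27 with an interval of -0.15 to 0.69, and *Hormad1* gave 0.18 with an interval of -0.18 to 0.55. The median of the list was 0.23 as deposited and -0.05 after centring.

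Among 11 cohesin genes 2 were higher. *Wapl*, which releases cohesin from chromatin, had 13.96 and 14.26 in PWD and 13.06 and 13.35 in B6 (log fold-change 0.91, adjusted p = 0.00653), and another probeset gave 0.61 without passing (adjusted p = 0.0977). *Rad21*, the kleisin shared with somatic cells, had 12.13 and 12.30 in PWD and 11.19 and 11.11 in B6 (1.07, adjusted p = 0.0223), but its other probesets gave 1.12 and -0.67 without passing, and the call was lost without PWD replicate 2 (0.98) or either B6 replicate (1.11 and 1.03). Of 13 genes of unsynapsed chromatin and checkpoints, *Mdc1*, which spreads the signal of phosphorylated H2AX along chromatin, was higher, with 12.03 and 12.00 in PWD and 11.09 and 11.38 in B6 (0.78, adjusted p = 0.017). This call too was lost without either PWD replicate (0.77 and 0.80) and without B6 replicate 1 (0.64). *H2ax* gave -0.77 and did not pass (adjusted p = 0.0872).

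The study mapped autosomal loci that modify the asymmetry of hybrid sterility and named 16 candidate genes in them. The alleles mapped differ between PWD and STUS, another strain of *M. m. musculus* origin, and a difference between PWD and B6 does not test them. All 16 genes were above background, and 3 were higher (18.8%) and 1 lower (6.25%) here. Of all genes above background 26.6% were higher and 8.83% lower. The candidates called were *Mnd1*, *Rec114* and *Mei4*, described above, and *Xrn1*, a 5' to 3' RNA exonuclease. *Xrn1* had 6.24 and 7.47 in PWD and 5.35 and 5.11 in B6 (1.63, adjusted p = 0.0316), and its call was lost without PWD replicate 2 (1.01) or either B6 replicate (1.74 and 1.51). After centring, 4 candidates were higher and 5 lower, and after quantile normalization 2 and 4. Of the 6 measured candidate genes of the *Hstx2* region on Chr X, 3 were above background, and none was called.

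Of 25 genes of DNA replication and cell division, 4 were higher and 1 lower, with a median of 0.28. *Aurkb*, the chromosomal passenger kinase, had 7.97 and 8.83 in PWD and 6.17 and 6.38 in B6 (log fold-change 2.12, SE 0.30, adjusted p = 0.00201), and another probeset gave 3.05. *Ccna2*, the S-phase and mitotic cyclin, had 10.75 and 11.91 in PWD and 9.39 and 9.18 in B6 (2.05, adjusted p = 0.00368), although another probeset of it gave 0.09. *Cdk1*, the kinase of the division itself, went the other way, with 10.97 and 10.13 in PWD and 11.77 and 11.89 in B6 (-1.28, adjusted p = 0.0119, and 0.0688 without B6 replicate 2).

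The factors that switch spermatogonia towards differentiation were split. *Sohlh1*, a helix-loop-helix regulator, had 7.32 and 8.17 in PWD and 5.13 and 4.87 in B6 (2.75, SE 0.25, adjusted p = 2.2e-04). Its dimer partner *Sohlh2* had 8.81 and 9.12 in PWD and 10.02 and 10.00 in B6 (-1.04, SE 0.18, adjusted p = 0.00536). *Sall4*, a zinc finger factor of spermatogonia, was higher (1.62, adjusted p = 0.00193). The arrays of the strains did not overlap for any of the 3 genes, and all 3 were below background in both strains in the later populations. Over the 17 measured genes of spermatogonia and meiotic entry the median was -0.03.

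Among 22 genes of the piRNA pathway, which silences transposons and loads small RNAs in pachytene, 3 were higher and 1 lower. *Piwil1*, the effector of pachytene piRNAs, had 7.46 and 6.11 in PWD and 9.09 and 8.99 in B6 (-2.26, SE 0.38, adjusted p = 0.0047). *Mybl1*, the transcription factor of pachytene piRNA loci, had 10.24 and 9.35 in PWD and 8.45 and 8.42 in B6 (1.36, SE 0.30, adjusted p = 0.016), another probeset gave 1.64, and the call was lost without either B6 replicate (1.37 and 1.34). After centring, 2 genes of the pathway were higher and 8 lower.

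Of 19 genes of pachytene and diplotene spermatocytes, 9 were higher (47.4%) and 3 lower in PWD, with a median of 0.61. *Cdc25c*, a phosphatase that activates CDK1, had 9.46 and 9.55 in PWD and 7.66 and 7.88 in B6 (1.73, adjusted p = 0.00336). *Spata16*, an acrosome gene, had 8.44 and 8.73 in PWD and 6.96 and 7.08 in B6 (1.56, adjusted p = 6.8e-04). Another probeset of each was also higher (1.45 and 1.43). The lower members were *Piwil1*, described above, *Adam2*, a sperm surface gene (-0.62, adjusted p = 0.0381), and *Aurkc*. *Aurkc*, the meiotic Aurora kinase, had 4.05 and 4.19 in PWD and 8.37 and 7.83 in B6 (-3.98, SE 0.22, adjusted p = 1.7e-05). It was below background in PWD, at least 9.44-fold lower, and it was also lower in PWD pachytene cells (-1.48) and spermatids (-2.82). Without B6 replicate 1 or B6 replicate 2, 5 or 4 genes of this list were higher.

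Of 32 spermatid genes, 11 were higher (34.4%) and none was lower, with a median of 0.92 in prepachytene, 0.24 in pachytene and -0.45 in spermatids. *Tnp2*, a transition protein of condensing spermatids, had 12.18 and 12.74 in PWD and 10.77 and 10.67 in B6 (1.74, SE 0.24, adjusted p = 0.00189). *Prm2*, a protamine, had 13.29 and 13.44 in PWD and 11.55 and 11.73 in B6 (1.72, SE 0.17, adjusted p = 3.0e-04). Both lay apart between the strains, and in spermatids, their own cells, both were lower in PWD (-1.21 and -0.82). The mean level of the 32 genes was 10.58 and 11.05 on the PWD arrays and 9.96 and 9.86 on the B6 arrays. The number of higher members was 5 without PWD replicate 2, 6 without either B6 replicate and 13 without PWD replicate 1. In sorted bulk samples fewer cells of a type and less RNA per cell cannot be told apart, and the part of other cells in the results was not tested.

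Of 18 measured Sertoli cell genes, 9 of them above background, 5 were higher (27.8%) and 1 lower (5.56%), with a median of 1.07. Over all genes 16.6% were higher and 5.88% lower, and among genes above background 26.6% and 8.83%. *Vim*, the intermediate filament of these cells, had 10.81 and 10.05 in PWD and 8.44 and 7.34 in B6 (2.54, SE 0.41, adjusted p = 0.00404), and its other probesets gave 1.79 and 2.75. *Inhbb*, a subunit of inhibin and activin, had 5.99 and 5.86 in PWD and 2.98 and 3.38 in B6 (2.74, adjusted p = 5.9e-06), at least 2.09-fold. *Rhox5* (9.13 and 8.96 in PWD, 7.19 and 6.59 in B6) and *Cldn11* (7.67 and 7.94 in PWD, 5.92 and 5.79 in B6), a homeobox gene and a tight junction gene, were higher by 2.16 and 1.95.

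No defining Sertoli marker was called higher. *Sox9* and *Gata4* were below background on all 4 arrays, as were *Amh* and *Fshr*, and *Sox9* was the member that was lower (3.79 and 3.85 in PWD, 4.29 and 4.28 in B6). *Wt1* had 6.39 and 4.67 in PWD and 4.32 and 3.03 in B6. Its PWD arrays lay above both B6 arrays, but the difference did not pass (1.86, adjusted p = 0.0654). The mean level of the list was 7.09 and 6.80 on the PWD arrays and 6.20 and 5.74 on the B6 arrays. No measured gene of the lists of Leydig cells (6) and of blood cells and macrophages (13) was above background. *Star*, the cholesterol carrier of Leydig cells, was called lower below that level (3.05 and 3.02 in PWD, 4.17 and 4.32 in B6, adjusted p = 4.9e-04). Of 13 genes of peritubular, connective and vessel cells, 2 were above background. *Dcn*, a proteoglycan of connective tissue, had 6.92 and 10.13 in PWD and 1.94 and 1.93 in B6 (6.59, SE 0.83, adjusted p = 0.00114), at least 12.7-fold. The other was *Acta2*, a defining marker of the list, with 7.17 and 6.48 in PWD and 6.75 and 6.57 in B6. It did not pass (0.17, adjusted p = 0.88). *Col1a1* and *Col3a1* were below background, with 2.61 to 4.40 in PWD and 2.63 to 2.84 in B6.

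**Figure D2:**
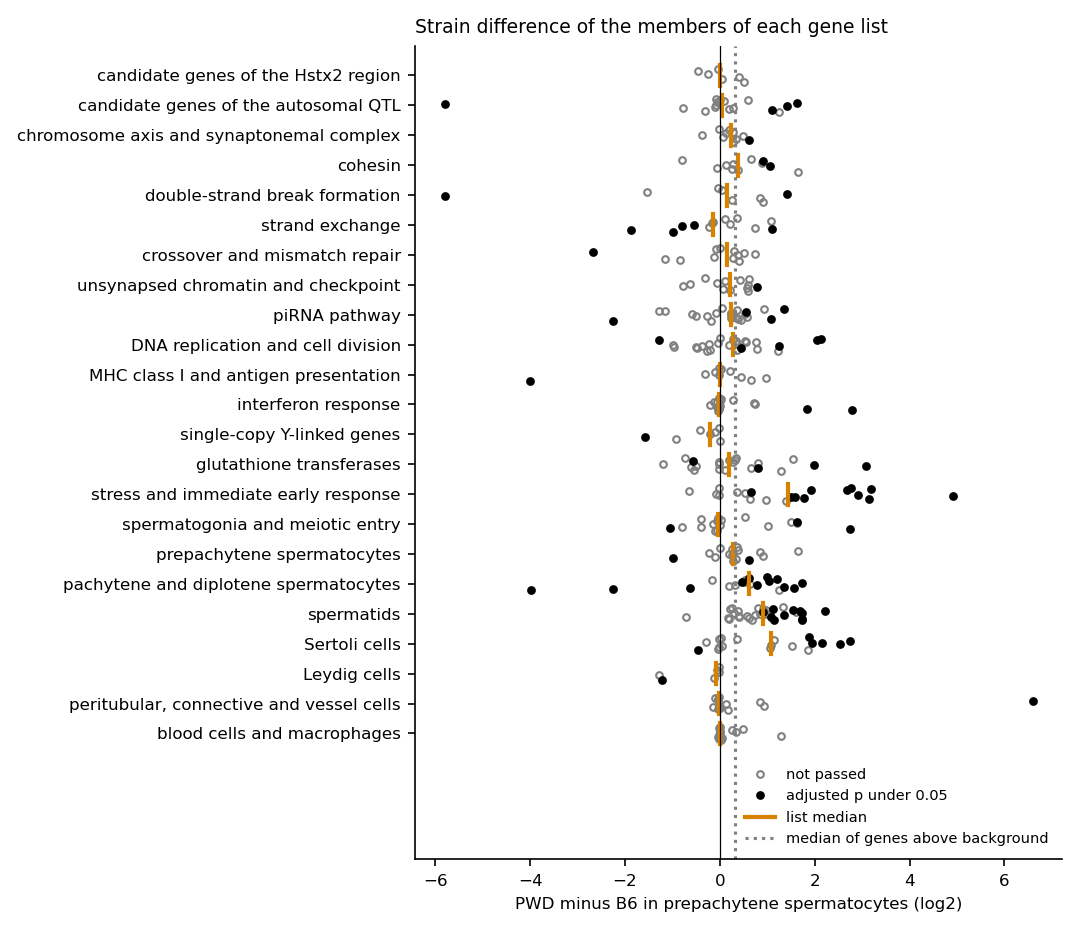
PWD minus B6 in prepachytene spermatocytes (log fold-change) for each measured member of a gene list, filled where the adjusted p was under 0.05, with the list median (orange bar) and the median of genes above background (dotted line, 0.33). The median of the stress and immediate early genes lies at 1.44 and that of the synaptonemal complex genes at 0.23.

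The list with the highest median was that of stress and immediate early genes, which cells transcribe within minutes of heat, dissociation or growth factor signals. Of its 20 members, 16 of them above background, 11 were higher in PWD (55.0%) and none was lower, with a median of 1.44. After centring or quantile normalization 10 were higher and 1 lower, with medians of 1.17 and 1.25. The mean level of the list was 8.81 and 9.49 on the PWD arrays and 7.58 and 7.70 on the B6 arrays. In pachytene cells, where the mean levels were 6.19 and 6.21 in PWD and 6.16 and 6.13 in B6, 2 members were higher and 1 lower with a median of 0.04, against 12.1% and 5.05% of all genes (17.2% called). In spermatids no member was called and the median was 0.11, against 9.56% of all genes higher and 7.54% lower (17.1% called). The strain effect exceeded that in pachytene cells for 6 members (7.24% of all genes) and that in spermatids for 8 (12.4%). The number of higher members was 14 without PWD replicate 1 and 8 without either B6 replicate.

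*Hspa1a* and *Hspa1b*, which encode inducible HSP70 chaperones, are near-identical neighbours on Chr 17, so that a probe can read both and their signals cannot be told apart with certainty. Their promoters are shown, together with that of *Jun*, which holds the same kind of element, and that of *Btg2*, which holds a different one. Sequences around the transcription start do not show whether a probe reads both genes. The sequences are from RefSeq (GRCm38.p6), run from 250 bases before to 50 bases after the transcription start in the direction of transcription (all 4 genes are on the minus strand) and lie at chr17:34972107-34972406, chr17:34959189-34959488, chr4:95052173-95052472 and chr1:134079106-134079405. Capitals mark a minimal heat shock element, GAANNTTC or TTCNNGAA, or the cyclic AMP response element TGACGTCA, searched on both strands (each reads the same on both).
*Hspa1a*: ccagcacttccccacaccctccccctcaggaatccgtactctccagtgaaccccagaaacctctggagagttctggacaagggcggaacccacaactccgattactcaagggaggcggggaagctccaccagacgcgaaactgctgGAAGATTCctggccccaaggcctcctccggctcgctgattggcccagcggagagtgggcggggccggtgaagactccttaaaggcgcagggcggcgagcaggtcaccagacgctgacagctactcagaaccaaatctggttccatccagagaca
*Hspa1b*: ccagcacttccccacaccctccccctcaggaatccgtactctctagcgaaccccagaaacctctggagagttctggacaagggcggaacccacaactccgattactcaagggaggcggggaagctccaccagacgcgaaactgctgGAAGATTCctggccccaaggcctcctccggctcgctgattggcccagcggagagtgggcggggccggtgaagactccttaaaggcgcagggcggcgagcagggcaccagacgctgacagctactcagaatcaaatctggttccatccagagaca
*Jun*: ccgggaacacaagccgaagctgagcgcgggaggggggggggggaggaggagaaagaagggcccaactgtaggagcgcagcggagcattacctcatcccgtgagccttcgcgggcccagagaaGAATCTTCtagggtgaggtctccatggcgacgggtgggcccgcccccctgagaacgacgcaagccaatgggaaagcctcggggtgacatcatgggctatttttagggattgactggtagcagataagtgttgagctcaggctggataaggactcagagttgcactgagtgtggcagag
*Btg2*: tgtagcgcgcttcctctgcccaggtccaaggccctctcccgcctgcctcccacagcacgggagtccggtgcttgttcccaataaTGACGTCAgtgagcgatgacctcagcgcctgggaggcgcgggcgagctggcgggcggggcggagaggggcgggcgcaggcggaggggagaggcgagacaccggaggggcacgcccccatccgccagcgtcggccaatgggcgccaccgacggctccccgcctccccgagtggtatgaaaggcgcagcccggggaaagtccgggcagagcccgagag
The promoters of *Hspa1a* and *Hspa1b* were identical at 296 of 300 positions (98.7%), and the element began 104 bases before the start in both. That of *Jun* began 128 bases before it. Of the 16 genes of the list with a promoter in the table, 4 held a heat shock element and 1 the cyclic AMP response element, against 15.1% and 1.79% of all 32851 promoters. A match describes letters in this window and is not evidence of a bound site.

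*Hspa1a* had 8.38 and 10.85 in PWD and 4.96 and 4.45 in B6. The PWD arrays differed from each other by more than 2 units but lay above both B6 arrays, and the log fold-change was 4.91 (SE 0.86, adjusted p = 0.00558). *Hspa1b* had 10.71 and 12.23 in PWD and 8.49 and 8.60 in B6 (2.92, SE 0.45, adjusted p = 0.00296), and its other probesets gave 2.62 and 2.86. The strain effect was larger in prepachytene than in pachytene for both (5.62, adjusted p = 0.0234, and 2.76, adjusted p = 0.0294), but both were below background in both strains in pachytene. The heat-inducible chaperone genes *Hsp90aa1* (-0.07) and *Dnajb1* (-0.02) and the constitutive *Hspa8* (0.35) did not pass.

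Of the transcription factors of the immediate early response, *Jun*, *Egr1* and *Jund* were higher. *Jun* had 6.76 and 7.65 in PWD and 4.45 and 3.70 in B6 (3.14, SE 0.42, adjusted p = 0.00148), at least 5.09-fold since B6 was below background. *Egr1* had 12.00 and 12.17 in PWD and 10.50 and 10.49 in B6 (1.59, SE 0.24, adjusted p = 0.0026), and *Jund* had 12.29 and 11.05 in PWD and 9.86 and 9.92 in B6 (1.78, SE 0.40, adjusted p = 0.0174). In all 3 genes both PWD arrays lay above both B6 arrays. *Fos*, the partner of JUN, had 9.86 and 11.83 in PWD and 9.19 and 9.72 in B6 and did not pass (1.40, 95% interval 0.15 to 2.65, adjusted p = 0.129).

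The other members called include negative regulators of growth. *Gadd45b*, a stress sensor upstream of p38 and JNK, had 11.83 and 11.46 in PWD and 8.55 and 9.37 in B6 (2.69, SE 0.28, adjusted p = 4.4e-04). In pachytene it was below background in both strains (mean 3.18 in PWD and 4.66 in B6). *Btg2*, an antiproliferative gene, had 7.31 and 7.76 in PWD and 4.24 and 5.30 in B6 (2.76, SE 0.43, adjusted p = 0.00322). *Ier3* had 6.06 and 6.52 in PWD and 2.85 and 3.34 in B6 (3.20, adjusted p = 7.3e-05), at least 2.7-fold, and *Ier2* had 6.63 and 7.12 in PWD and 4.68 and 5.22 in B6 (1.92, adjusted p = 5.3e-04). None of these 4 genes overlapped between the strains.

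**Figure D3:**
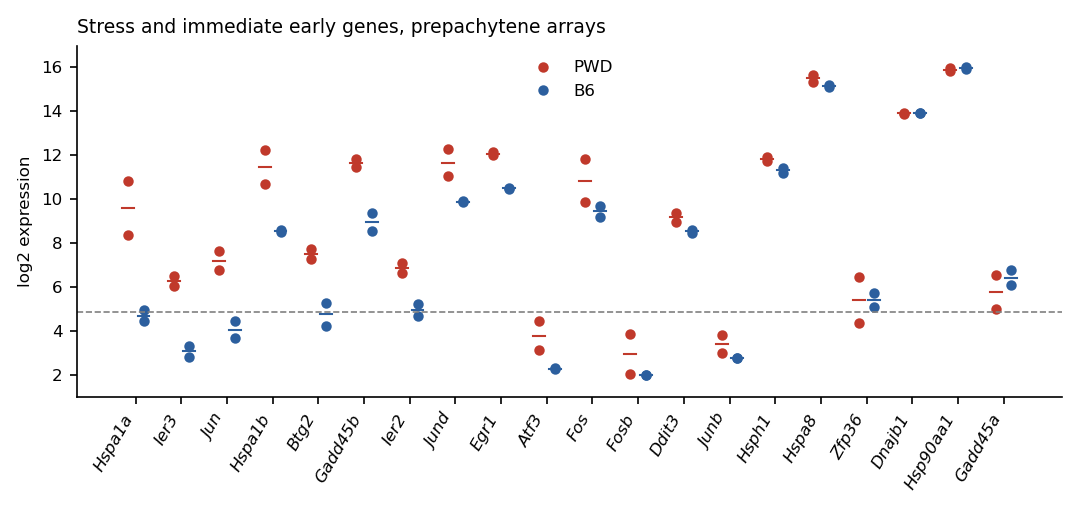
Log2 expression of the 20 stress and immediate early genes on each prepachytene array, with PWD (red, left) beside B6 (blue, right), bars at the mean of 2 arrays and the dashed line at the background level of 4.86. *Hspa1a* lies at 8.38 and 10.85 in PWD and at 4.96 and 4.45 in B6, and *Dnajb1* and *Hsp90aa1* show nearly equal levels in both strains.

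Genes of interferon and antigen presentation gave few calls. *Irf1*, a transcription factor that interferon and stress induce, had 7.37 and 8.94 in PWD and 5.36 and 5.37 in B6 (2.80, SE 0.42, adjusted p = 0.00286), and *Irf9* had 6.55 and 6.46 in PWD and 3.82 and 5.51 in B6 (1.84, adjusted p = 0.0234, lost without either PWD replicate at 1.80 and 1.89). The other 16 measured interferon genes did not pass, and 4 of the 18 were above background. *H2-K1*, a class I molecule that is polymorphic between strains, had 8.88 and 9.58 in PWD and 13.29 and 13.16 in B6 (-3.99, adjusted p = 3.2e-05). Its probesets disagreed (-3.53 and 1.38), as did those of *H2-D1* (3.85 to -0.59), and no direction is drawn for these genes.

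Among 21 glutathione transferases, enzymes that detoxify electrophiles, 3 were higher and 1 lower. *Gsta2* had 7.99 and 8.09 in PWD and 5.29 and 4.63 in B6 (3.08, SE 0.23, adjusted p = 7.9e-05), and *Gsta4* had 8.53 and 8.23 in PWD and 6.81 and 5.97 in B6 (1.99, SE 0.30, adjusted p = 0.00262). The strains were apart in both, and both genes were below background in both strains in pachytene.

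Of 46 cytosolic ribosomal protein genes 11 were higher and 4 lower, with a median of 0.29, but 7 were higher and 8 lower after centring. *Rpl14* had 2.48 and 2.37 in PWD and 7.47 and 7.60 in B6 (-5.11, adjusted p = 2.7e-06), at least 6.39-fold lower. A single probeset above background reports *Rpl14*, and a sequence difference of PWD under its probes was not tested. Its means in the later populations were 2.62 to 3.01, below background in both strains. Of 86 genes of the respiratory chain and ATP synthase 16 were higher and 5 lower, and 11 and 25 after centring, and *Ndufaf3*, an assembly factor of complex I, had 13.82 and 13.88 in PWD and 11.80 and 11.66 in B6 (2.11, adjusted p = 1.1e-05). Of 39 proteasome genes 4 were higher and 5 lower (2 and 15 after centring). *Psma8*, the alpha subunit of the testis proteasome, gave -1.29 (adjusted p = 0.0309), and this call was lost without PWD replicate 2 (-0.73) or either B6 replicate (-1.13 and -1.45). Of 305 genes named Zfp, 44 were higher and 27 lower (38 and 62 after centring), and of 334 solute carriers 40 and 16 (38 and 86 after centring). Only 178 of these Zfp genes and 134 of these solute carriers were above background. Of the 36 genes that other organs express, 0 were lower as deposited and 11 after centring.

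Many of the largest differences were seen by 1 probeset of a gene. The highest was that of *Pdxdc1*, with 12.65 and 13.12 in PWD and 1.92 and 1.97 in B6 (10.94, SE 0.18, adjusted p = 3.8e-08), at least 261-fold. The difference was as large in pachytene (10.41) and spermatids (10.33), while the other 3 probesets of *Pdxdc1* above background gave -2.76 to -0.62. The lowest was that of *Rpn1*, a subunit of the oligosaccharyltransferase, with 2.36 and 5.54 in PWD and 15.08 and 15.14 in B6 (-11.16, SE 0.81, adjusted p = 6.8e-05). It too was shared by all populations (-11.39 and -10.73 in the later ones), and of its 4 other probesets above background 2 were lower as well (the lowest at -10.57). The remaining 2 did not pass, at 0.12 (adjusted p = 0.711) and 0.46 (adjusted p = 0.0601). Their means were 13.56 and 13.67 in PWD and 13.44 and 13.22 in B6.

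*Kif7*, a kinesin of the Hedgehog pathway, had 7.51 and 8.21 in PWD and 2.10 and 2.16 in B6 (5.73, SE 0.19, adjusted p = 1.2e-06), at least 8.01-fold, and was below background in both strains in the later populations (2.17 to 2.21). *Id2*, an inhibitor of helix-loop-helix factors, had 9.10 and 9.50 in PWD and 3.72 and 3.78 in B6 (5.54, SE 0.23, adjusted p = 4.5e-06), at least 21.7-fold, and was below background in both strains in pachytene (4.12 in PWD and 3.92 in B6). *Col5a1*, a fibrillar collagen, had 10.45 and 10.60 in PWD and 5.34 and 4.09 in B6 (5.81, SE 0.48, adjusted p = 1.3e-04), and another probeset was also higher (2.11). It gave -1.26 in pachytene (adjusted p = 0.127) and was lower in PWD spermatids (-3.08, adjusted p = 0.00415).

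On the lower side, *Rabgap1l*, a GTPase activator, had 4.58 and 4.84 in PWD and 11.93 and 12.10 in B6 (-7.30, SE 0.25, adjusted p = 1.6e-06), at least 142-fold lower, and was below background in both strains in the later populations. Its other probesets gave -1.27, 1.77 and 0.09. *Snx6*, a sorting nexin, had 3.23 and 2.85 in PWD and 10.72 and 10.17 in B6 (-7.41, SE 0.28), at least 48.0-fold lower, with -0.30 to 0.27 in its other 3 probesets. *Bub1*, a spindle checkpoint kinase, had 3.52 and 4.44 in PWD and 10.26 and 10.36 in B6 (-6.33, SE 0.51), at least 43.7-fold lower, whereas a brighter probeset gave 0.00. Of the 15 genes with the highest log fold-changes, 8 had another probeset above background and in 5 of them it was also called higher. For the 15 lowest these numbers were 13 and 5. Over all called probesets with such a partner, another one was called in the same direction for 50.3% of 2072 higher and 38.8% of 1200 lower probesets, and the part of sequence differences under probes was not tested.

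**Figure D4:**
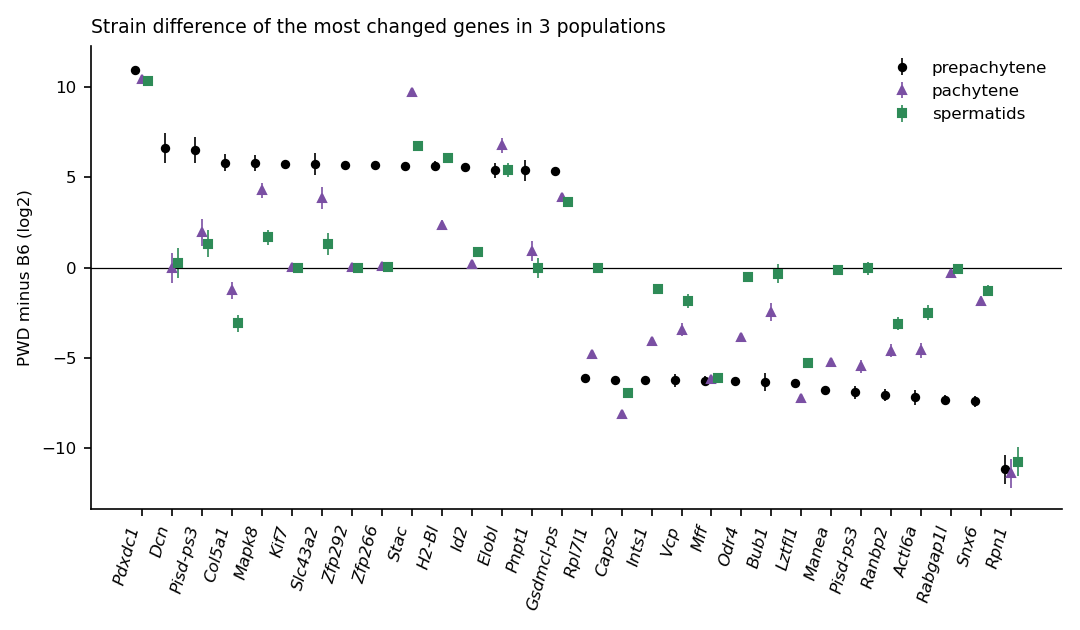
PWD minus B6 (log fold-change) for the genes with the 15 highest and 15 lowest values in prepachytene spermatocytes (black circles), beside the same probesets in pachytene spermatocytes (purple triangles) and spermatids (green squares), with bars of 1 SE. *Pdxdc1* and *Rpn1* keep their values in all populations, whereas the later values of *Kif7* and *Rabgap1l* near 0 come from levels below background in both strains and show no strain effect either way.

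The chromosomes differed in the share of genes called. On Chr X, 303 genes were above background, of which 40 were higher (13.2%) and 42 lower (13.9%) in PWD, with a median of -0.02. On the autosomes 27.1% of 9104 genes were higher and 8.68% lower, with a median of 0.34. The same order held after centring (11.9% and 28.1% on Chr X, 24.2% and 19.6% on autosomes) and after quantile normalization (10.6% and 20.1% on Chr X, 22.5% and 15.6% on autosomes). Among autosomes the share of higher genes ran between 20.0% on Chr 13 and 34.4% on Chr 17, which carries *Prdm9*. These shares count genes and were not tested.

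X-linked genes with large differences, chosen after their values were seen, are the following. *Magea6*, a cancer/testis antigen gene of a family of similar copies, had 1.96 and 1.93 in PWD and 8.05 and 7.76 in B6 (-5.97, SE 0.09, adjusted p = 3.3e-08), at least 8.28-fold lower. *Eif2s3x*, a translation initiation factor, had 9.62 and 10.20 in PWD and 5.77 and 6.57 in B6 (3.74, SE 0.28, adjusted p = 7.6e-05), and another probeset gave 2.65. *Chm*, a Rab escort protein, had 2.41 and 2.39 in PWD and 7.96 and 7.47 in B6 (-5.31, adjusted p = 4.0e-07), at least 7.25-fold lower, but its brighter probeset gave -2.12 (5.86 and 7.40 in PWD, 8.74 and 8.77 in B6). On the later arrays the mean levels of the probesets given first for *Magea6*, *Eif2s3x* and *Chm* were 1.99 to 3.20, below background in both strains. *Xlr4c*, the 1 multicopy sex-linked gene with a probeset of its own, had 2.47 and 2.49 in PWD and 5.41 and 5.55 in B6 (-3.00, adjusted p = 1.6e-07), at least 1.54-fold lower.

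**Figure D5:**
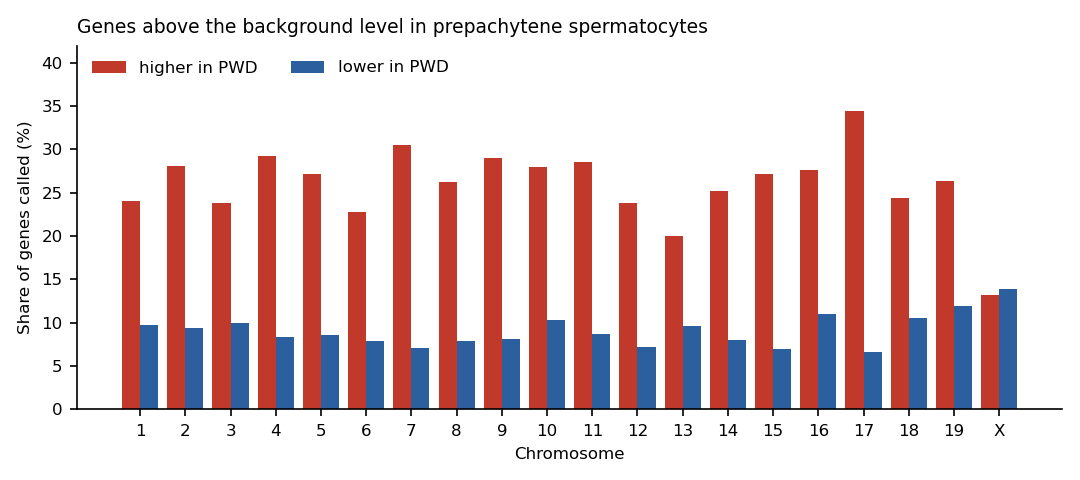
Share of genes above the background level that were called higher (red) or lower (blue) in PWD prepachytene spermatocytes, for each autosome and Chr X. Chr X has the lowest share of higher genes (13.2%) and the highest share of lower ones (13.9%), and Chr 17 has the highest share of higher genes (34.4%).

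The strain effect in prepachytene cells was then set against that in the later populations. It differed from the effect in pachytene cells for 5250 probesets (11.7%, 5.4% with a higher and 6.26% with a lower effect in prepachytene cells) and from that in spermatids for 6854 (15.2%, 8.9% higher and 6.32% lower). Over genes these shares were 13.6% (6.39% lower) and 19.4% (7.0% lower), and the comparisons share the prepachytene arrays. Of the 34945 probesets with 1 gene, 2187 were called in prepachytene cells with an effect further in that direction than in both other populations. These were 1263 higher and 924 lower. Later effects of opposite sign count here too, even larger ones (*Runx3*, 2.69 in prepachytene cells, -4.36 and -4.51 later). Of the 2187, 688 were above background on all 8 later arrays and in the prepachytene mean. Of these, 420 were not called in either later population and had separate prepachytene arrays, 240 higher and 180 lower.

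Genes of this last set were chosen after their values were seen. *Gsn*, an actin-severing protein, had 7.99 and 10.05 in PWD and 5.28 and 3.98 in B6 (4.39, SE 0.73, adjusted p = 0.00453), and its other probesets gave 3.95 and 3.60. *Banp*, a nuclear matrix protein, had 10.82 and 10.78 in PWD and 8.00 and 7.47 in B6 (3.07, SE 0.18, adjusted p = 2.3e-05). *Sec61a2*, a subunit of the protein translocation channel, had 7.27 and 7.60 in PWD and 10.61 and 10.50 in B6 (-3.12, SE 0.25, adjusted p = 1.1e-04), with another probeset at -3.54. Separate prepachytene arrays and no call in the later populations were conditions of this set and not further results. The log fold-changes in the later populations were -1.91 and -1.91 for *Gsn*, 0.06 and 0.30 for *Banp* and 0.18 and -0.53 for *Sec61a2*.

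Some of the largest differences between populations came from the later cells instead. *Grtp1*, a gene for a Rab GTPase activator, had 6.21 and 6.76 in PWD and 7.82 and 7.91 in B6 prepachytene cells (-1.38, adjusted p = 0.0057), with -10.37 in pachytene and -8.58 in spermatids. *Ccndbp1*, which binds cyclin D, had 10.34 and 10.23 in PWD and 10.10 and 10.10 in B6 (0.19, adjusted p = 0.479), with 4.77 and 7.67 in the later populations. *Runx3*, a Runt-domain transcription factor, turned direction. It had 6.01 and 7.03 in PWD and 3.83 and 3.82 in B6 (2.69, adjusted p = 0.00111), at least 3.16-fold, and -4.36 in pachytene and -4.51 in spermatids, so that the strain effects differed by 7.05 and 7.21.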

How the data were processed

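Sorted cells were measured on 12 Affymetrix arrays, 2 per strain and population. The values deposited by the authors are on the log2 scale and belong to the standard probesets. They are GCRMA values according to the submitters' processing notes, with a version not given in the sources used here. GCRMA estimates background from probe sequence, equalizes the distributions of the arrays and combines the probes into 1 value per probeset. The methods name this array but give RMA beside another array type, and a custom chip description file. Probes follow a reference close to B6, and a mismatch with PWD can lower a PWD value.

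Of 45101 probesets, 64 controls were left out, and 34945 of the 45037 tested named exactly 1 gene in the platform annotation, with chromosomes and names from RefSeq (GRCm38.p6), where 204 were not found. The test was limma 3.58.1 in R 4.3.3, with lmFit and eBayes, a variance prior that follows the mean, group means only and Benjamini-Hochberg adjustment over all probesets at 0.05. Python 3.11.15 served for tables (pandas 2.3.3, numpy 2.4.6) and for plots (matplotlib 3.10.9). Compared were PWD and B6 in prepachytene cells and its differences from pachytene cells and from spermatids. The prepachytene comparison was also run on simulated data over 45037 probesets. Of differences of 1, 2, 3 and 4 log2 units, 26%, 72%, 88% and 100% were called, with 11 false calls. The simulation changed 50 probesets of each size, with noise independent between arrays. In the data 18.6% of probesets were called and the arrays differed in scale, so that these rates need not hold there. The number of arrays limits the precision.

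The members and gene lists were chosen with earlier results of these data known. The genes named were drawn by the following rule, and not every gene that it gives is named in the text. It took the 15 highest and 15 lowest log fold-changes among called probesets with 1 gene, each gene once per direction. These probesets had a mean above background and no overlap between strains. For each list it took up to 4 members above background with the largest change. The 5 highest and 5 lowest of each difference between populations were taken by the same conditions. The defining markers (the first 4) of each cell type were the last part. Genes outside this rule are given as further members of the lists for context or as chosen after their values were seen. Alternatives were another quantile normalization, centring of arrays, filters, other probeset choices, priors and thresholds, a replicate block, fits with fewer arrays and leaving out each array. The scalings over probesets above background and the alternatives by list were added after seeing the data.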

Additional observations from a re-analysis of the deposited data

Results flagged for a closer look

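The strain difference in prepachytene cells was tested against that in pachytene cells, and the genes below passed this test (adjusted p under 0.05 in limma, 2 arrays per group). A positive value means a strain difference (PWD minus B6) that was higher in prepachytene than in pachytene cells, on the log2 scale. Of these 47 values, 23 belong to probesets below background in both strains in pachytene cells, where no strain effect could be seen (*Dcn*, *Kif7*, *Zfp292*, *Zfp266*, *Id2*, *Pnpt1*, *Rabgap1l*, *Mei4*, *Cdt1*, *Gsta2*, *Gsta4*, *Hspa1a*, *Hspa1b*, *Sohlh1*, *Sohlh2*, *Sall4*, *Rpl14*, *Zfp783*, *Zfp930*, *Slc24a3*, *Slc27a2*, *Card10* and *Abcc5*). Among the genes with the highest log fold-changes it was 6.62 for *Dcn*, 4.54 for *Pisd-ps3*, 7.07 for *Col5a1*, 5.71 for *Kif7*, 5.65 for *Zfp292*, 5.61 for *Zfp266*, 5.34 for *Id2*, 4.46 for *Pnpt1* and 1.42 for *Gsdmcl-ps*. *Pisd-ps3* has a probeset among the highest and another among the lowest differences. Among the genes with the lowest log fold-changes it was -5.54 for *Snx6*, -7.03 for *Rabgap1l*, -2.59 for *Actl6a*, -2.46 for *Ranbp2*, -1.54 for *Manea*, -3.87 for *Bub1*, -2.46 for *Odr4*, -2.82 for *Vcp*, -2.17 for *Ints1* and -1.34 for *Rpl7l1*.

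Among genes of meiosis and germ cell stages the difference was -5.92 for *Mei4*, -2.37 for *Cdk2*, -2.50 for *Aurkc*, 1.22 for *Cdt1*, 2.78 for *Sohlh1*, -1.23 for *Sohlh2*, 1.59 for *Sall4*, 1.35 for *Tnp2* and 1.31 for *Prm2*. It was 5.62 for *Hspa1a*, 2.76 for *Hspa1b*, 2.64 for *Irf1*, -3.78 for the probeset of *H2-K1* given first (its probesets disagreed, and no direction is drawn), 1.85 for *Gsta2* and 1.67 for *Gsta4*.

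In the large families it was -4.80 for *Rpl14*, 1.41 for *Ndufa6*, 2.68 for *Psma7*, -2.15 for *Psma8*, -5.11 for *Zfp783*, 3.38 for *Zfp930*, 1.89 for *Slc22a15*, 2.44 for *Slc22a17*, 2.54 for *Slc24a3* and 2.41 for *Slc27a2*. Among the genes chosen for the largest differences between populations it was 7.05 for *Runx3*, 4.46 for *Card10* and -2.58 for *Abcc5*.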

How the results depend on the processing

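With the adjusted p under 0.01 instead of 0.05, 4762 probesets differed between PWD and B6 in prepachytene cells, 3005 higher and 1757 lower. The strain effect then differed from that in pachytene cells for 2310 probesets (1198 with a higher and 1112 with a lower effect in prepachytene cells) and from that in spermatids for 3334 (1931 and 1403). With the 4 prepachytene arrays only, 4173 probesets were called, 2649 higher and 1524 lower, and with the 8 prepachytene and pachytene arrays only 3424 differed from pachytene, 1707 of them with a lower effect. Centring of the arrays called 20225 probesets, 15505 of them lower. Centring over probesets above background left 3210 higher in PWD, and 2558 with a higher effect than in spermatids (2661 after quantile normalization). Over the deposited values above background, 1576 had a higher effect than in pachytene.

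When each array was left out in turn, the calls of PWD versus B6 ran between 6085 (without B6 prepachytene replicate 2) and 9483 (without PWD prepachytene replicate 1), the higher ones between 3485 and 6025 and the lower ones between 2500 and 3458. Against pachytene cells they ran between 3268 (without B6 pachytene replicate 2) and 8630 (without PWD prepachytene replicate 1), with 1824 to 3890 higher and 1408 to 4740 lower. Against spermatids they ran between 5073 and 8332, with 2787 to 5293 higher and 1955 to 3039 lower. Of the members of the gene lists, 57 were higher and 17 lower, with 38 to 74 and 13 to 23 without 1 array. After centring 69 were lower, and 28 after quantile normalization. At the 90th percentile the background level was 3.74. *Ifih1* had a log fold-change of -0.00 on all arrays and of 0.81 without B6 prepachytene replicate 1 (adjusted p = 0.0227) and of -0.82 without B6 prepachytene replicate 2. The cause of these changes was not tested.

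The labels repeat the replicate numbers 1 and 2 in both strains, but same-numbered prepachytene arrays of the 2 strains deviated together with r = 0.02 only. Within PWD, same-numbered arrays gave r = -0.26 between prepachytene and pachytene cells. They gave 0.07 between prepachytene cells and spermatids and -0.18 between pachytene cells and spermatids. Within B6 these values were -0.02, -0.02 and 0.08. The main fit treated all arrays as independent. With the replicate number as a block, 7764 probesets were called in prepachytene cells (4956 higher and 2808 lower), 4425 differed from pachytene and 6122 from spermatids. Signal near background and 2 arrays per group limit small differences and genes of low expression.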
